A study of Arabidopsis thaliana with 12 samples.

Results

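CHLM (AT4G25080) and CHLP (AT1G74470) are genes of the 2 branches that meet in chlorophyll, and each was measured by 1 probe in wild-type Arabidopsis thaliana and in the psah2 mutant. The probes were chosen because the annotation pairs each with exactly 1 gene, CHLM or CHLP; they are 2 of the 690 probes that could be assigned to a single locus, among 3439 probes in all. Total RNA was taken from 6 WT samples and 6 samples of psah2, a mutant without the photosystem I protein PSI-H2, and both groups are of ecotype Columbia 0. The labels give no tissue, age, growth condition or allele for either group, and they do not tell separate plants from repeats of 1 RNA, so that p-values rest on a spread between arrays that may be technical. No probe of 7 listed root and seed marker genes named a single gene, so the tissue was not checked by them.

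Chlorophyll is built from a magnesium-containing tetrapyrrole ring and a phytol tail. On the ring side, magnesium chelatase inserts magnesium into protoporphyrin IX, and CHLM, the Mg-protoporphyrin IX methyltransferase, then adds a methyl group ahead of ring closure by the cyclase. On the tail side, CHLP, the geranylgeranyl reductase, turns geranylgeranyl groups made by the plastid isoprenoid pathway into phytyl groups, which chlorophyll synthase joins to the ring and which also go into tocopherol and phylloquinone. PSI-H2 belongs to photosystem I, a complex that binds much of the chlorophyll of the thylakoid membrane and at which PSI-H is known to take part in the docking of mobile light-harvesting antenna.

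The 2 genes did not move alike in the deposited intensities. CHLM was 1.89-fold lower in psah2 and CHLP 1.25-fold higher, so that the intensity of CHLP over that of CHLM on the same array was 2.36-fold higher in psah2. When the arrays were brought to a common distribution by quantile normalization, both probes were higher in psah2, CHLM by 1.36-fold and CHLP by 1.20-fold, and the ratio no longer differed beyond the spread between arrays. The direction of CHLM and that of the ratio thus rested on how the arrays were scaled, while CHLP was higher in psah2 under each of the 5 scalings tried, although it did not pass the test with cyclic loess.

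The arrays themselves differed between the groups. The median intensity of all probes, on a linear scale that ends at 100, was 0.304 to 0.379 on the WT arrays and 0.0904 to 0.0995 on the psah2 arrays, and between 13% and 13.7% of all probes stood at 0 on a WT array against 20.1% to 22.5% on a psah2 array. As deposited, the median log2 change over all 2643 tested probes was -1.64, and after quantile normalization it was -0.26. A change is therefore read here beside these medians. Array brightness and genotype cannot be told apart here, and their separate parts in the changes of CHLM and CHLP were not tested. The precision of each value is that of 6 arrays a group.

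The CHLM probe lay in the middle of the range of the arrays. Its deposited intensity in WT was lowest at 0.318 in replicate 6, had a median of 0.407 and was highest at 0.503 in replicate 4. In psah2 it was lowest at 0.176 in replicate 3, had a median of 0.188 and was highest at 0.277 in replicate 2. The groups did not overlap: every psah2 array was below every WT array. Within psah2, replicates 1 and 2 stood above the other 4 arrays, which ranged from 0.176 to 0.191. Over 6 arrays each, the mean ± SD was 0.399 ± 0.067 in WT and 0.212 ± 0.045 in psah2. On the log2 scale as deposited, CHLM was lower by 0.92 (log2 change -0.92, SE 0.16, limma, Benjamini-Hochberg adjusted p = 0.000186), where 77.5% of the tested probes were called lower and the groups of 66.2% lay apart in that direction. The CHLM value of -0.92 was above the median probe's -1.64.

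By its place within an array CHLM was higher in psah2, as was every other gene named below by its median place. This place counts all probes, those at 0 included, and more probes stood at 0 on psah2 arrays. AT4G26370, with a log2 change of 0.13 after quantile normalization, went from a median place of 31.4% in WT to 39.3% in psah2. What the probes at 0 added to these places was not tested. In WT the CHLM intensity was at or above that of 51.3% to 65.8% of the probes, with a median of 53.9%. In psah2 it was at or above that of 64.3% to 74.8%, with a median of 66.0%. WT replicate 4 was the array on which the groups overlapped in this measure. After quantile normalization the CHLM log2 intensity in WT ran from -2.29 over a median of -2.17 to -1.60, and in psah2 from -1.87 over a median of -1.75 to -1.29. In these values WT replicate 4 was above 4 psah2 arrays, and the other 5 WT arrays were below all 6. The log2 change was 0.44 with an SE of 0.16 (n = 6 each, limma, adjusted p = 0.0269). Of all tested probes 61.5% passed this test and 25.2% were higher in psah2, so that a call on its own does not set CHLM apart. The call was lost without any 1 of 6 arrays (WT replicates 1, 2, 5 and 6 and psah2 replicates 1 and 2), with adjusted p from 0.0509 to 0.0585, with array weights (log2 change 0.35, adjusted p = 0.112), and with consecutive replicates averaged, 1 with 2, 3 with 4 and 5 with 6, since such arrays resembled each other (adjusted p = 0.170).

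The CHLP probe was among the bright probes of every array. Its deposited intensity in WT was lowest at 2.56 in replicate 6, had a median of 2.98 and was highest at 4.22 in replicate 1. In psah2 it was lowest at 3.49 in replicate 6, had a median of 3.89 and was highest at 4.54 in replicate 1. The groups overlapped, since WT replicates 1 and 2 (4.22 and 3.58) lay within the psah2 range, while the other 4 WT arrays, at 2.99 or less, were below every psah2 array. Over 6 arrays each, the mean ± SD was 3.19 ± 0.61 in WT and 3.93 ± 0.42 in psah2. As deposited, the log2 change of CHLP was 0.32 with an SE of 0.14 (limma, adjusted p = 0.0474), where 9.50% of the tested probes were called higher.

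By its place within an array CHLP stood near the top in both groups. Its intensity was at or above that of 96.3% to 97.2% of the probes in WT and of 97.2% to 97.5% in psah2, and WT replicate 1 and psah2 replicate 4 stood at the same place. After quantile normalization its log2 intensity in WT ran from 1.56 over a median of 1.65 to 2.0, and in psah2 from 1.83 over a median of 1.95 to 2.03. Only WT replicate 1, at 2.0, reached into the psah2 range. CHLP rose by 0.26 on the log2 scale (SE 0.10, n = 6 each, limma, adjusted p = 0.0356). This call was lost with cyclic loess (log2 change 0.22, adjusted p = 0.0860, where 27.2% of the tested probes were called higher), with consecutive replicates averaged (adjusted p = 0.227) and without any 1 of 7 arrays (WT replicates 2, 3, 4, 5 and 6 and psah2 replicates 1 and 3), with adjusted p from 0.0579 to 0.0815. With arrays only centred on their medians, which lifts every psah2 value, CHLP had a log2 change of 1.74 and CHLM of 0.50.

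**Figure D1:**
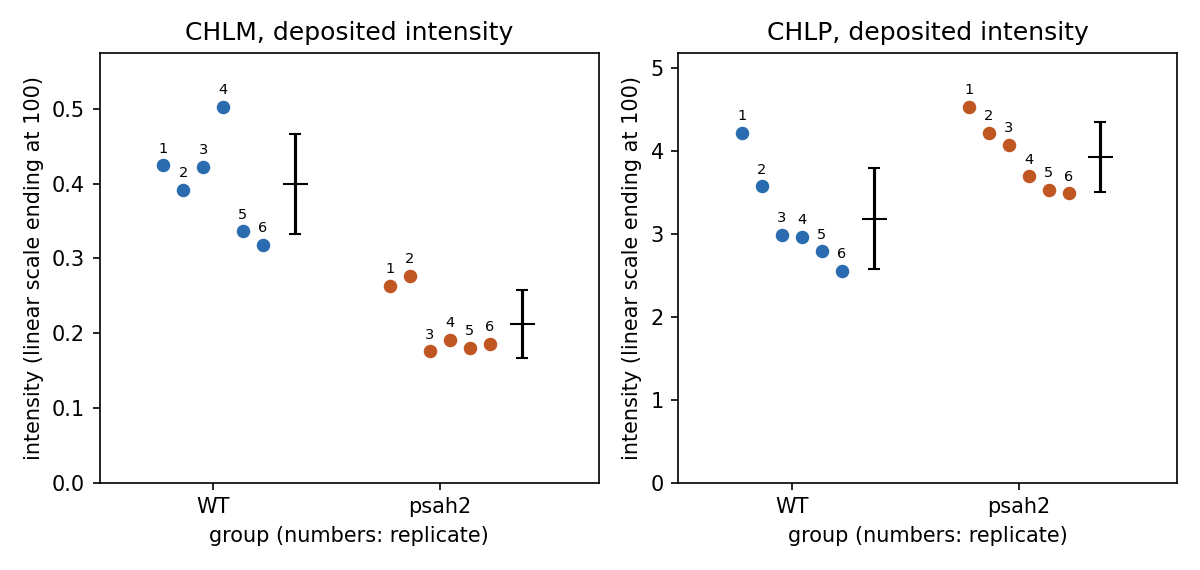
Deposited intensity of CHLM (left) and CHLP (right) on each array, on linear axes from 0, with points numbered by replicate, and the mean with its SD as a black bar (n = 6 each). The 6 psah2 arrays lie below all WT arrays for CHLM, between 0.176 and 0.277, whereas for CHLP they lie between 3.49 and 4.54 and overlap with WT replicates 1 and 2.

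The ring branch was set against the tail branch by the ratio of both probes on 1 array, which a scale factor of that array cannot change. Probes differ in how strongly they bind, so the size of the ratio is not a ratio of transcripts, and only its difference between the groups is read. The log2 ratio of CHLP over CHLM in WT was lowest at 2.56 in replicate 4 and highest at 3.31 in replicate 1, with a mean of 2.99 ± 0.27 (SD, n = 6). In psah2 it was lowest at 3.93 in replicate 2 and highest at 4.54 in replicate 3, with a mean of 4.23 ± 0.20 (SD, n = 6). Each psah2 array was above each WT array. The difference was 1.24 on the log2 scale (SE 0.14), or 2.36-fold, and an exact permutation test over the 924 splits of the 12 arrays, 2-sided, gave p = 0.00216, the smallest p it can give. It was the single such ratio tested, but its genes were chosen with earlier results of these data known. This p is therefore not free of that choice.

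The difference did not hold under the 2 normalizations that act on the shape of an array's distribution. After quantile normalization the log2 ratio had a mean ± SD of 3.75 ± 0.32 in WT and 3.57 ± 0.24 in psah2, a difference of -0.18 with an SE of 0.17 (exact permutation test, p = 0.292). With cyclic loess, which also bends the scale with the level, it was -0.42 (SE 0.16, exact permutation test, p = 0.0260), so that CHLP over CHLM was then lower in psah2. With 0.1 added to both intensities, an alternative chosen after seeing the data, the difference was 0.99 and its groups stayed apart.

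**Figure D2:**
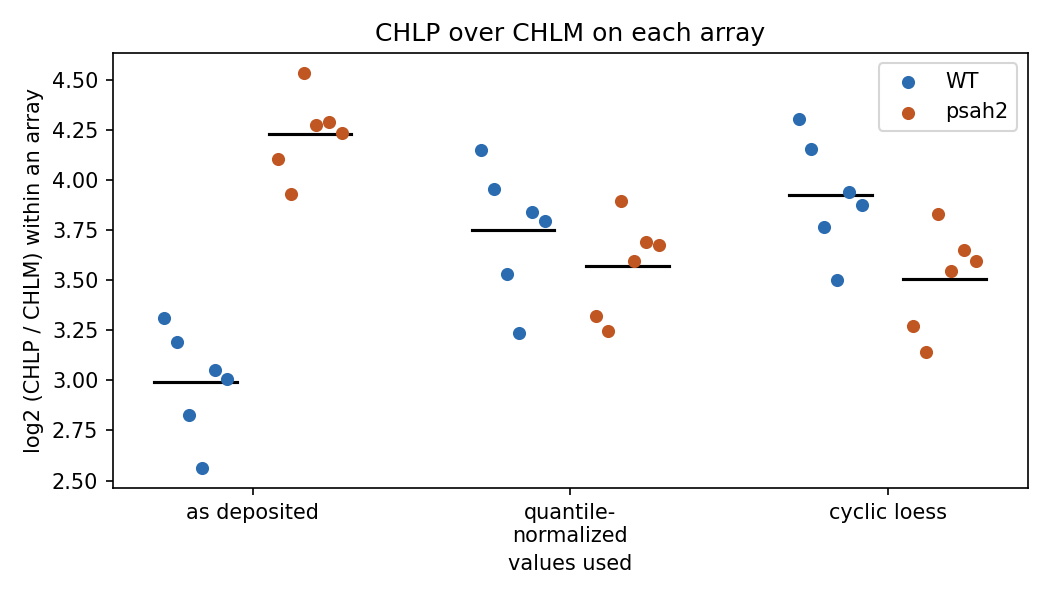
Log2 ratio of CHLP over CHLM within each of the 12 arrays, from the deposited, the quantile-normalized and the cyclic loess values, with a line at the mean of each group. The deposited ratios of psah2 (3.93 to 4.54) lie above those of WT (2.56 to 3.31), and the groups overlap in both normalized versions.

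The level of a probe moved with its change. When the tested probes were ranked by their mean deposited log2 intensity and split into 10 groups of equal size, CHLM was in the sixth, where the median log2 change as deposited was -1.58 over 264 probes, and CHLP in the tenth, where it was 0.02 over 265 probes. These medians differ by 1.60, more than the 1.24 between CHLP and CHLM. Against the median of its own group, CHLM was higher by 0.66 and CHLP by 0.29. Both changes lay between the quartiles of their groups, which were -2.26 and -0.90 in the sixth and -1.24 and 0.94 in the tenth. Neither gene thus stood apart from probes of like level. The part of this dependence on level in the ratio was not tested.

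**Figure D3:**
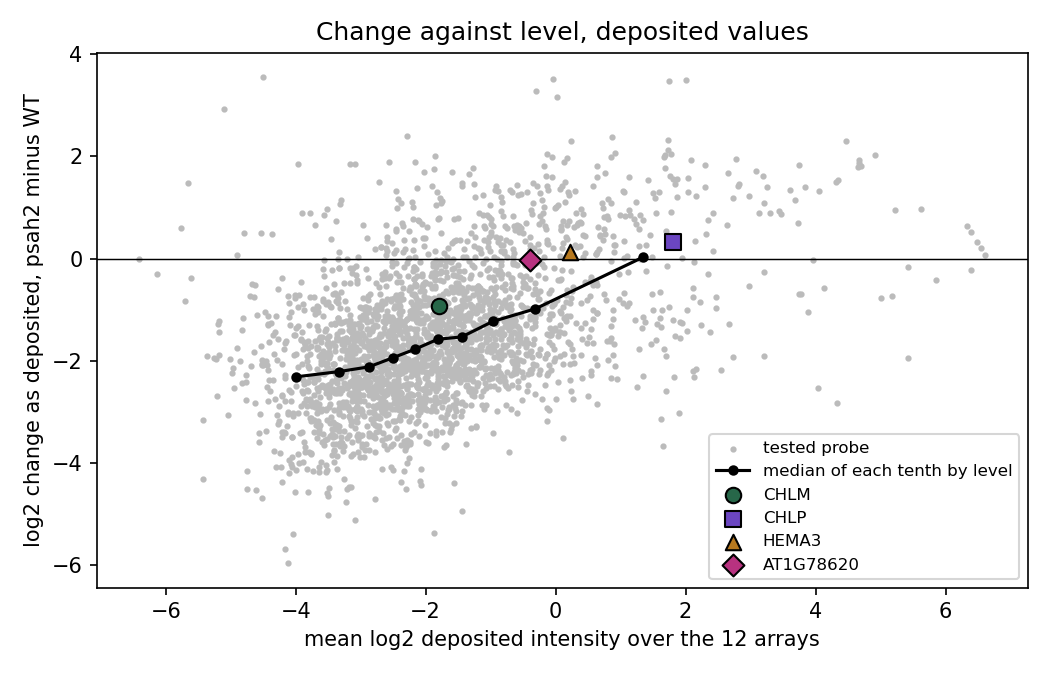
Log2 change as deposited, psah2 minus WT, of every tested probe (grey) against its mean log2 deposited intensity over the 12 arrays, with the median of each of 10 groups of equal size by level in black. The medians go from -2.32 for the dimmest to 0.02 for the brightest group. CHLM at -0.92 and CHLP at 0.32 lie above the medians of their groups but between the quartiles.

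The rest of the pathway was thinly covered. Of 78 other listed genes of tetrapyrrole, heme, chlorophyll, phytol, tocopherol, phylloquinone and carotenoid synthesis and of chlorophyll breakdown, 2 had a tested probe naming a single gene, and 7 more appeared only on probes annotated with several genes, which were not used. No magnesium chelatase subunit, cyclase, protochlorophyllide reductase or chlorophyll synthase, and no gene of the plastid isoprenoid supply, could be followed. After quantile normalization both of these other genes passed the test in the higher direction, as did CHLM and CHLP, and 25.2% of all tested probes. CHLM, CHLP and the lists were chosen with earlier results of these data known. The calls of these 4 genes are therefore not a test of the pathway. With the values as deposited 2 of the 4 passed, CHLP in the higher and CHLM in the lower direction, where 2300 of all 2643 tested probes passed. Without any 1 of 4 arrays (WT replicates 2, 5 and 6 and psah2 replicate 1) HEMA3 and AT1G78620 alone passed. Leaving out any 1 of the 12 arrays gave 1499 to 1585 called probes. These 2 genes alone also passed with consecutive replicates averaged, where 1275 of 2824 probes passed. With cyclic loess (not CHLP) and with array weights (not CHLM) 3 of the 4 passed, where 1421 and 1675 of the 2643 probes passed. The counts for the 4 genes are not read beyond these shares.

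HEMA3 (AT2G31250) belongs to the glutamyl-tRNA reductase genes, whose enzymes start tetrapyrrole synthesis. Its deposited intensity in WT ran from 1.04 over a median of 1.12 to 1.19, and in psah2 from 1.1 over a median of 1.19 to 1.5. The groups overlapped, with psah2 replicate 1 the highest of the 12 arrays. After quantile normalization every psah2 array was above every WT array, as for 18.8% of the tested probes, and HEMA3 rose by 0.60 on the log2 scale (SE 0.11, limma, adjusted p = 0.00046). The deposited values gave HEMA3 a log2 change of 0.12 (SE 0.10, limma, adjusted p = 0.288).

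AT1G78620 was placed on the list of phytol, tocopherol and phylloquinone genes from general knowledge. The annotation used here gives the locus no name or role, so that its place on the tail side could not be checked here. Its deposited intensity in WT ran from 0.743 over a median of 0.767 to 0.821, and in psah2 from 0.573 over a median of 0.831 to 0.893. In psah2, replicates 5 and 6 lay below all WT arrays and replicates 1, 2 and 4 above them. After quantile normalization every psah2 array was above every WT array, as for 18.8% of the tested probes. It rose by 0.78 (SE 0.12, limma, adjusted p = 0.000145), whereas as deposited the log2 change was -0.03 with an SE of 0.14 (limma, adjusted p = 0.842). After quantile normalization the fitted rise of CHLP (0.26) was thus the smallest of the 4, after CHLM (0.44), HEMA3 (0.60) and AT1G78620 (0.78). The order turned with the scaling. As deposited, the log2 change of CHLP was the largest (0.32, against HEMA3 0.12, AT1G78620 -0.03 and CHLM -0.92). Centring the arrays on their medians shifts these genes alike, so it had to keep that order (CHLP 1.74, HEMA3 1.54, AT1G78620 1.40 and CHLM 0.50). With cyclic loess (0.22) and with values at 0 set to a floor (0.41), the change of CHLP was again the smallest of the 4. Differences between the changes of these genes were not tested, except by the ratio of CHLP over CHLM.

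**Figure D4:**
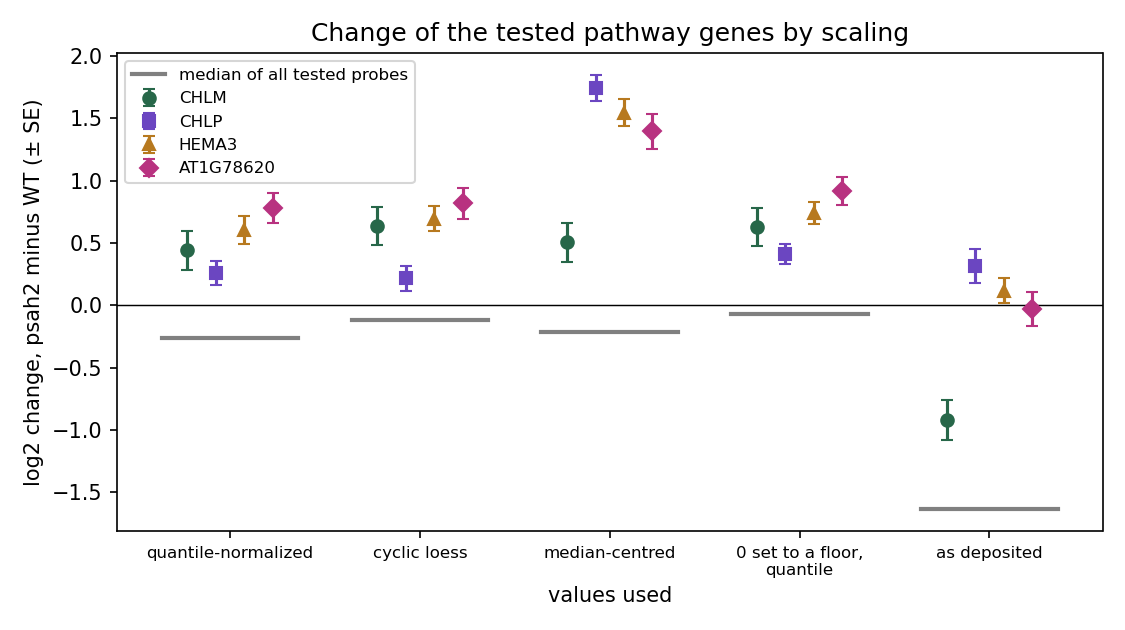
Log2 change with its SE, psah2 minus WT, of CHLM, CHLP, HEMA3 and AT1G78620 under 5 ways of scaling the arrays, with the median of all tested probes in grey. CHLM goes from 0.44 after quantile normalization to -0.92 as deposited, CHLP stays above 0 throughout, and all 4 genes lie above the median of the tested probes under each scaling.

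Other genes were compared with CHLM and CHLP by their profile over the 12 arrays, as the root mean square difference between quantile-normalized log2 values, each centred on its own mean, over 419 other probes naming a single gene and without a value at 0. The median difference from CHLM was 0.71, and the nearest profiles were those of AT5G26880 (0.20), HEMA3 (0.22) and AT1G76240 (0.25). The median difference from CHLP was 0.63, and the nearest were AT2G03200 (0.17), AT4G26370 (0.17) and AT2G15440 (0.19). CHLM and CHLP differed from each other by 0.28, with 12 probes nearer to CHLM than CHLP was and 40 probes nearer to CHLP than CHLM was. This measure takes in the difference between WT and psah2, so it favours probes with a change near that of CHLM or CHLP. The calls of the neighbours are therefore not a separate result. Of these neighbours HEMA3 and AT2G15440 (log2 change 0.38, limma, adjusted p = 0.0377) passed the test, where 25.2% of all tested probes were called higher. AT5G26880 (0.24), AT1G76240 (0.32), AT2G03200 (0.16) and AT4G26370 (0.13) did not pass. AT2G15440 lost its call without any 1 of WT replicates 3, 4, 5 and 6 and psah2 replicates 1, 2 and 5 (limma, adjusted p from 0.0526 to 0.0811). AT1G76240 passed without any 1 of psah2 replicates 3 and 4 and WT replicate 5, and AT5G26880 without psah2 replicate 3 (limma, adjusted p from 0.0157 to 0.0457). AT2G15440 also lost its call with consecutive replicates averaged (limma, adjusted p = 0.202). The other 4 were called higher with cyclic loess (limma, adjusted p from 0.00631 to 0.0487) and with values at 0 set to a floor (0.0018 to 0.0295). Among all tested probes, 720 of 2643 were called higher with cyclic loess and 765 of 3439 with the floor. With median-centred arrays AT2G03200 and AT5G26880 were called higher (limma, adjusted p = 0.000444 and 0.0091) and AT4G26370 lower (log2 change -0.35, adjusted p = 0.0171). There, 731 of 2643 probes were called higher and 824 lower. Those 5 apart from HEMA3 were lower in psah2 as deposited, with log2 changes from -0.75 for AT2G03200 to -1.78 for AT4G26370, as CHLM was and CHLP was not. As deposited 77.5% of all tested probes were called lower and the median log2 change was -1.64. This direction therefore does not set these genes apart.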

How the data were processed

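The authors deposited 1 intensity per probe and array on a linear scale from 0 to 100; for background correction, scaling and scanner, nothing is stated in the sources used here. Groups and replicate numbers come from the sample titles, and no column lay outside the 12 samples. Because array medians and sums differed by more than 5%, intensities were log2-transformed with values at 0 left missing and quantile-normalized. The 2643 probes with at least 4 values in each group were tested by limma 3.58.1 (lmFit, eBayes; R 4.3.3) without a covariate, 2-sided, with Benjamini-Hochberg adjustment over all tested probes and a threshold of 0.05. The fit was tested on simulated data. Ratios used exact permutation in SciPy 1.17.1. Any true difference in total signal between genotypes is lost in quantile normalization.

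Probes were named from the platform annotation through RefSeq gene identifiers of TAIR10.1: 692 had 1 gene, 870 several and 1877 none listed; 690 matched a locus. Coordinates are not given, since no build is named for the probes. Named genes are both members, every listed pathway gene tested, and the 3 nearest profiles of each member. Members and lists were chosen with earlier results of these data known.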

Additional observations from a re-analysis of the deposited data

Results flagged for a closer look

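In a gap test on 20 groups of 6 arrays (the 9 named genes and the CHLP over CHLM ratio, in each genotype), which chance passes in about 1 of 20 groups, 1 group held an array apart from the others. WT replicate 1 was above the other WT arrays for CHLP after quantile normalization, at a log2 intensity of 2.0 against a mean of 1.63 for the other 5, with a gap of 0.760 of the range. Without that array the log2 change of CHLP was 0.33 (SE 0.09, limma, adjusted p = 0.00702).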

How the results depend on the processing

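The count of called probes stayed between 1275 and 2300 against 1625, but as deposited its split was 251 higher and 2049 lower, against 667 and 958, so that the higher share went from 41.0% to 10.9%. CHLM turned to -0.92 as deposited. Its call was lost at a log2 change of 0.44 with the replicate block (adjusted p = 0.0677) and with consecutive replicates averaged (0.170), and at 0.35 with array weights (0.112); leaving out 1 array gave 0.37 to 0.54. CHLP lost its call at 0.26 with the replicate block (0.0577) and with averaged replicates (0.227), and at 0.22 with cyclic loess (0.0860); leaving out 1 array gave 0.23 to 0.33. Of the 4 pathway genes, 2 were called with the replicate block, 2 with averaged replicates and 2 as deposited, 1 in each direction; leaving out 1 array gave 2 to 4. The ratio's difference of 1.24 turned to -0.18 after quantile normalization, -0.42 with cyclic loess and -0.22 with quantile normalization after setting 0 to a floor, added after seeing the data. With averaged replicates it was 1.24, where 3 against 3 cannot go below p = 0.1 (exact permutation test), and leaving out 1 array gave 1.15 to 1.30. As deposited, AT1G78620 (-0.030), AT5G26880 (-1.0), AT1G76240 (-1.29), AT2G03200 (-0.75), AT4G26370 (-1.78) and AT2G15440 (-0.96) turned sign; AT4G26370 also did with median-centred arrays (-0.35). The cause of these turns was not tested. The replicate numbers are not known to pair the samples: the correlation of same-numbered deviations ranged from 0.06 to 0.17 and was over 0.1 for 4 of 6 numbers, although for each of the 12 arrays the best match in the other genotype had its number. With the replicate block the ratio's difference was 1.24 (exact sign flips, p = 0.0312, the smallest they can give) and 1592 probes were called. Deviations of consecutive replicates correlated with 0.00 to 0.49, those of other replicates of a group with at most -0.16.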
